A study of Mus musculus with 2 samples.

Results

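Cells holding 5 or more UMIs of the chemokine genes Ccl3 and Ccl4 together were examined in 2 droplet single-cell RNA-seq libraries of sorted mouse microglia, the resident macrophages of the brain. A UMI is a random barcode on each captured RNA molecule, so that copies made by PCR are counted once. The rule kept barcodes with at least 1000 UMIs, at least 500 genes, at most 10% mitochondrial UMIs and under 2% of UMIs from 6 neutrophil granule and S100 genes. It then took those with 5 or more Ccl3 plus Ccl4 UMIs, and these are the members. There were 96 members among 8311 kept cells: 50 of 3304 in the wild-type (WT) library and 46 of 5007 in the library labelled IRF8KO. The deposited barcodes numbered 8807 in all. Ccl3 and Ccl4 chose the members, so their levels are a description, and so are those of the other genes of the same cells.

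Both libraries came from untreated female C57BL/6 mice aged 3 months. The brains were dissociated without enzymes, and the microglia of 3 mice per genotype were pooled, sorted by flow cytometry and loaded on the 10x Genomics platform. The title of the second library reads IRF8KO, a knockout of the transcription factor IRF8, while its genotype entry reads WT, so it is called the library labelled IRF8KO. With 1 library per group, no difference has a replicate check and no test was possible. How the IRF8 allele was deleted, and in which cells, is not given in the sources used here. Irf8 transcripts were counted in both libraries, at 748 CPM (UMIs of a gene scaled to a total of 1000000) in WT cells without Ccl3 and Ccl4 and at 651 CPM in the other. Since the deleted part is not given, the Irf8 count does not check the label. The microglia genes P2ry12 and Sall1 stood at 3724 and 478 CPM in those WT cells, against 654 and 3.46 CPM in the library labelled IRF8KO. The cells of that library therefore carried less of the markers that define the labelled cell type.

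Ccl3 and Ccl4, also called macrophage inflammatory proteins 1-alpha and 1-beta, are secreted chemokines that act on chemokine receptors and attract monocytes, T cells and natural killer cells. In macrophages both genes are switched on quickly by Toll-like receptor and NF-kappaB signalling, together with immediate early genes such as Egr1 and Atf3. In microglia the same set of genes is known to appear in injury, ageing and disease, and also during isolation of the cells from tissue.

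Kept cells summed to 18543061 UMIs for WT and to 18980263 for the library labelled IRF8KO. The median kept cell had 3204.5 and 2933 UMIs. The libraries shared 5 cell barcodes, and 0 of them were members. A doublet caller marked 4 of 3304 cells (0.121%) in WT and 14 of 5105 (0.274%) in the other library, under 0.5% of cells, and its calls were not used. No member was among the 87 and 208 cells with the highest doublet scores, which an alternative left out.

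Members had a median of 13 Ccl3 plus Ccl4 UMIs in the WT library (lowest 5, highest 251) and of 12.5 in the library labelled IRF8KO (lowest 5, highest 135). Ccl4 was the more abundant of the pair. It had 1275 UMIs in WT members against 483 of Ccl3, and 781 against 364 in the other library. Ccl4 exceeded Ccl3 in 42 of 50 WT members and in 29 of 46 IRF8KO members. Both genes were detected in 40 and 39 members. The few members held most of the signal, with 83.4% of all Ccl3 and Ccl4 UMIs of the kept WT cells and 66.5% of those in the library labelled IRF8KO. Within the members, the 5 cells with most of these UMIs held 43.5% and 39.04% of the members' total.

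**Figure D1:**
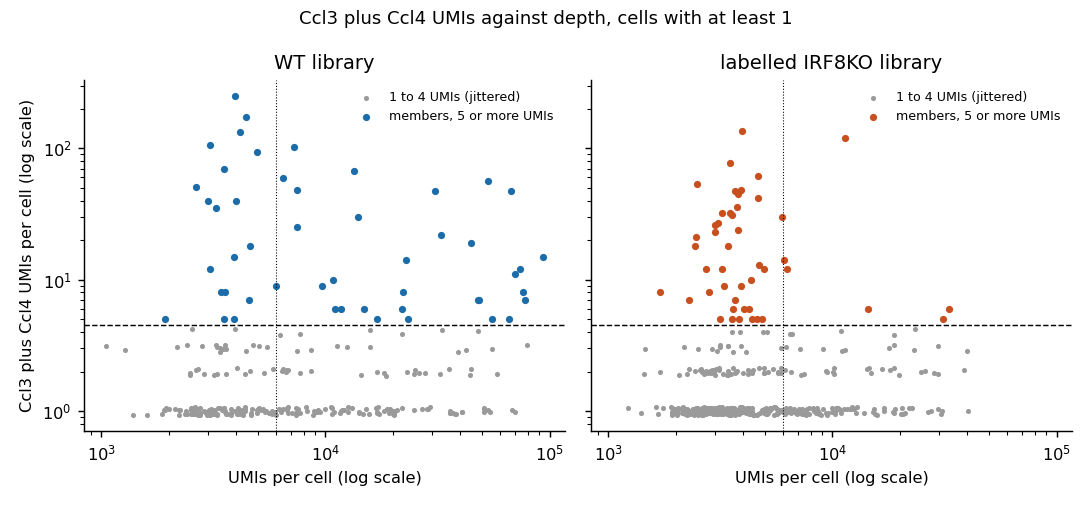
Each point is a cell with at least 1 Ccl3 or Ccl4 UMI; the x axis gives its total UMIs and the y axis its Ccl3 plus Ccl4 UMIs, both on log scales, with WT on the left and the library labelled IRF8KO on the right. The dashed line is the threshold of 5 UMIs and the dotted line marks 6000 total UMIs: 30 of 50 WT members and 6 of 46 IRF8KO members lie to its right.

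Most cells below the threshold had a lone UMI. In WT, 176 cells had 1 UMI, 34 had 2, 25 had 3 and 8 had 4, and 3011 had 0. The library labelled IRF8KO had 331, 70, 23, 9 and 4528 such cells. Just outside the threshold, 33 WT cells with 3 or 4 UMIs held 2.30 Ccl3 plus Ccl4 UMIs per 10000, and just inside it, 11 cells with 5 or 6 UMIs held 2.56 per 10000. The corresponding values in the other library were 3.496 per 10000 in 32 cells and 5.66 per 10000 in 12 cells. Median depths in WT were 5075 UMIs outside and 14893 inside, and in the other library 5503 and 4315, so the WT rates compare cells of unlike depth.

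Free RNA in the droplets can give a few UMIs to any cell. The 98 cells of the library labelled IRF8KO that the neutrophil gene filter removed had a median of 7057.5 UMIs, more than the median of 2876.5 in cells with 0 of both chemokines. They held 0 Ccl3 and 0 Ccl4 UMIs. Taking 0 as at most 3 counts, up to 3.06% of these cells may hold a UMI, or 3.69% by the exact binomial interval. Ccl2 was also at 0 UMIs in them, and Atf3, Cxcl10, Il1b, Ccl12 and Cd83 were detected in 1.02% to 3.06% of them. Gadd45b was detected in 15.3% of these cells, Tnf in 19.4%, Spp1 in 22.4% and Lgals3 in 89.8%, by unthinned counts. Members of the same library, at a lower median depth of 3775 UMIs, had Gadd45b in 6 and Tnf in 11 of 46 cells. Whether those cells express these genes was not tested.

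Ccl3 (ENSMUSG00000000982, mm10 chromosome 11, 83647844 to 83649355, minus strand) and Ccl4 (ENSMUSG00000018930, 83662584 to 83664683, plus strand) are neighbouring protein-coding genes, with 13.2 kb between them. The 250 bases before the start of Ccl3 are shown because this gene defines the members. They come from RefSeq on GRCm38.p6, minus strand, chr11:83649379-83649628.
Ccl3: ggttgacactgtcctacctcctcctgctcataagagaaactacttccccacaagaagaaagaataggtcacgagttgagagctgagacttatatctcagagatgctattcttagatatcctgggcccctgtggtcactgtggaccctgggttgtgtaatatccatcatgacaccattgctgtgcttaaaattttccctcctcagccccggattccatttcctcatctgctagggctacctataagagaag
No match to the 5 motifs searched, which are named below, was found in these letters, so no base is in capitals. The table used has no entry for Ccl4.

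Members were 1.51% of kept WT cells (exact binomial interval 1.13 to 1.99) and 0.919% of kept cells in the library labelled IRF8KO (0.673 to 1.22). The order turned at equal depth. When each cell was thinned to 2000 UMIs and 3 or more Ccl3 plus Ccl4 UMIs were required, 24 of 3019 WT cells (0.795%, 0.510 to 1.18) and 40 of 4509 IRF8KO cells (0.887%, 0.635 to 1.21) remained. These intervals overlap, and like all those below they cover counting error only. A total of 285 WT and 498 IRF8KO cells were shallower than 2000 UMIs and left out. In the unthinned WT cells the share was 0.672% among cells with 2000 to under 4000 UMIs and 4.5045% among those with 6000 or more. After thinning the same ranges gave 0.724% and 0.901%.

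WT members were deep cells. Their median depth was 10212.5 UMIs, against 3139 in WT cells with 0 of both chemokines, and 30 of 50 had over 6000 UMIs, against 17.3% of the cells with 0. For the library labelled IRF8KO the medians were 3775 and 2876.5 UMIs, and 6 of 46 members had over 6000. The rate of the chemokines ran the other way. The rule sets this in part, since 5 UMIs are a higher rate in a shallow cell than in a deep one. The 19 WT members with 2000 to 6000 UMIs had a median of 100.2 Ccl3 plus Ccl4 UMIs per 10000 (12.8 to 638), and the 30 deeper ones had 4.69 (0.759 to 142). The 39 and 6 corresponding IRF8KO members had medians of 50.4 and 11.7. A rule on UMI counts therefore gathered, in WT, shallow cells rich in the chemokines and deep cells with few of them. Median doublet scores were 0.115 in the deep WT members and 0.115 in WT cells of that depth with 0 of both chemokines, and 0.0648 and 0.0940 at 6000 UMIs or below.

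Members were compared with the cells of the same library that had 0 UMIs of both chemokines, after thinning each cell to 2000 UMIs. This left 49 WT members against 2735 cells, and 45 IRF8KO members against 4048. The level is CPM over the summed UMIs, and the log2 ratio is members over cells with 0, with an exact 95% conditional binomial interval. A gene is called higher or lower where this whole interval lies past 2-fold, a criterion adopted after the data were seen. Genes entered with a mean of at least 50 CPM over the 2 groups, so a gene near 0 in the comparison cells entered only if it was high in members. Of 3716 genes in WT, 33 were higher (0.888%) and 0 lower. Of 3207 in the library labelled IRF8KO, 58 were higher (1.81%) and 2 lower (0.0624%). By size alone, 196 genes (5.27%) were 2-fold or more higher and 171 (4.6%) lower in WT, against 243 (7.58%) and 166 (5.18%). With TMM scaling these latter counts became 184 and 219, and the median log2 ratio of all genes moved from 0.07 to -0.07. Most ratios past 2-fold had intervals that reached below it. Without thinning, 5 WT genes and 59 IRF8KO genes were called higher, and without the 5 members richest in Ccl3 and Ccl4 there were 21 and 40.

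Of 2766 genes counted in both libraries, 10 were called higher in both: Atf3, Ccl12, Ccl2, Cd83, Csf1, Egr1, Gadd45b, Il1b, Lpl and Slc15a3. They made up 58.8% of the 17 WT genes and 55.6% of the 18 IRF8KO genes that were called higher and counted in both. All genes called higher numbered 33 in WT and 58 in the other library. A gene near 0 in comparison cells was counted in both only if members of both libraries were high in it. The minimum therefore raises these 2 shares, and they do not measure how far the libraries agree. Without the 5 richest members of a library, 5 of the 10 stayed called in WT and 8 in the other. Across 1305 genes the log2 ratios of the libraries had a Pearson correlation of 0.52 and a Spearman correlation of 0.36. Genes are not independent replicates, and the libraries share the rule that chose the members.

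**Figure D2:**
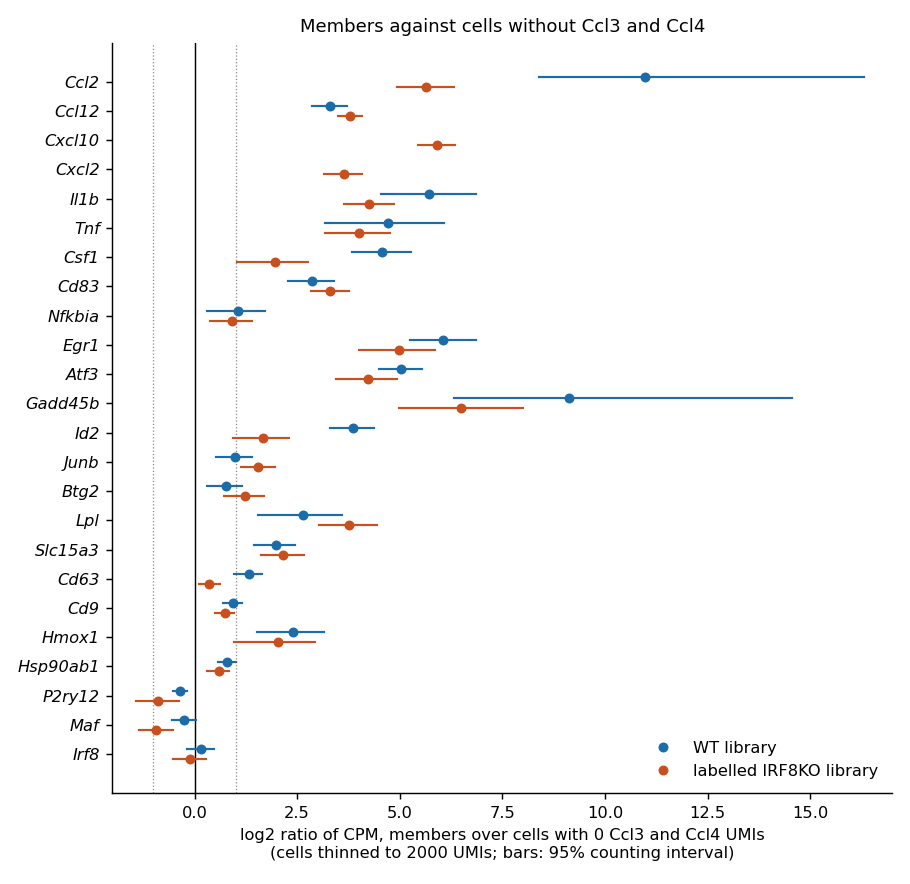
The x axis gives the log2 ratio of CPM in members over cells with 0 Ccl3 and Ccl4 UMIs, for 24 genes and both libraries; points are ratios, bars are 95% counting intervals and dotted lines mark 2-fold. Ccl2, Ccl12, Il1b, Csf1, Cd83, Egr1, Atf3, Gadd45b, Lpl and Slc15a3 lie wholly right of the upper line in both libraries, while Irf8 lies across 0. No ratio is drawn for Cxcl10 and Cxcl2 in WT, where both groups held 1 or 0 thinned UMIs.

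The gene with the highest WT ratio of those called in both was Ccl2 (ENSMUSG00000035385), a chemokine that recruits monocytes through CCR2. It had 36 thinned UMIs in 11 of 49 WT members, 367 CPM, against 1 UMI in 2735 comparison cells, a log2 ratio of 10.97 (8.402 to 16.32). The size of this ratio rests on that 1 UMI. Without thinning, the WT comparison cells held 21 Ccl2 UMIs in 17 cells. The unthinned ratio was 5.61 (4.90 to 6.38), below the thinned interval but still wholly past 2-fold. Among IRF8KO members it stood at 322 against 6.42 CPM (log2 ratio 5.65, 4.94 to 6.33). Ccl12, its neighbour in the same chemokine cluster on chromosome 11, reached 561 against 57.2 CPM in WT (log2 ratio 3.29, 2.85 to 3.71) and 1311 against 94.99 CPM in the other (3.79, 3.49 to 4.07). Single cells weighed heavily on Ccl12. Without the member holding most of it, the WT ratio became 2.13 (1.46 to 2.73) and the IRF8KO ratio 2.55 (2.10 to 2.97), both still wholly past 2-fold.

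Other CC chemokines differed by gene. Ccl9 was 367 against 133 CPM in WT (log2 ratio 1.46, 0.94 to 1.95) and was under the minimum of 50 mean CPM in the other library, at 55.6 against 10.0 CPM. Ccl7 had 7 thinned UMIs in WT members and 0 in comparison cells, which bounds its log2 ratio at 7.03 or more. It too was under the minimum CPM, and 2 WT members held all of its 15 unthinned UMIs. Ccl5, a T cell attractant, was 356 against 58.1 CPM in the library labelled IRF8KO (log2 ratio 2.61, 2.05 to 3.13), and had 0 thinned UMIs in WT members, where 10 members held 30 unthinned UMIs.

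Receptor genes of the chemokine family were sparse. Ccr1, a receptor of Ccl3, had 4 thinned UMIs in WT members, at 40.8 against 43.7 CPM, and 0 in IRF8KO members. Ccrl2, a chemerin receptor without a known chemokine signal, was higher in WT members, at 122 against 8.59 CPM (log2 ratio 3.83, 2.78 to 4.77). Among IRF8KO members it stood at 55.6 against 22.1 CPM, under the minimum.

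CXC chemokines were seen in members of the library labelled IRF8KO. Cxcl10, a ligand of CXCR3 known as an interferon and NF-kappaB target, was 767 against 12.8 CPM there (log2 ratio 5.90, 5.44 to 6.35). Its 305 unthinned UMIs came from 6 of 46 members, and 177 of them from 1 cell. Without that cell the ratio was 5.25 (4.70 to 5.78). Cxcl2, a neutrophil attractant, was 533 against 43.1 CPM (log2 ratio 3.63, 3.16 to 4.07), from 10 members by unthinned counts. Without its top cell it was 2.47 (1.76 to 3.104). Cxcl9 reached 156 CPM (log2 ratio 5.84, 4.76 to 6.87), but all 102 of its UMIs lay in 1 member.

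In WT members Cxcl2, Cxcl9 and Cxcl1 had 0 UMIs, and 0 thinned UMIs allow up to 30.6 CPM. Cxcl10 had 54 unthinned UMIs in 8 WT members but 1 after thinning. These 8 were deep cells of 48176 to 93350 UMIs, with 5 to 8 Cxcl10 UMIs each. The 3011 WT cells with 0 Ccl3 and Ccl4 UMIs, most of them far shallower, held 2 unthinned Cxcl10 UMIs. Of the 13 other chemokines listed, 4 were counted and 2 called higher in WT, and 9 were counted and 6 called higher in the library labelled IRF8KO. The median log2 ratios were 2.02 and 3.63, against 0.02 and 0.07 over all genes. Whether the libraries differ in these genes was not tested.

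The promoter windows of genes that the members shared were searched for 5 motifs on both strands: the kappaB site, the AP-1 site TGANTCA, the CRE TGACGTCA, the interferon-stimulated response element (ISRE) and the serum response CArG box. They occur in 3.9%, 6.75%, 1.55%, 2.98% and 1.47% of 32851 RefSeq windows of 250 bases, and overlaps were allowed. Windows were found for 8 of 14 genes looked up, which were Ccl3, Ccl4, the 10 genes called in both libraries, Tnf and Cxcl10. Of these 8, 2 held a match, Csf1 and Cxcl10, and both are shown for that reason, with matches in capitals. Windows on GRCm38.p6, both on the minus strand, are chr3:107760470-107760719 for Csf1 and chr5:92348890-92349139 for Cxcl10.
Csf1: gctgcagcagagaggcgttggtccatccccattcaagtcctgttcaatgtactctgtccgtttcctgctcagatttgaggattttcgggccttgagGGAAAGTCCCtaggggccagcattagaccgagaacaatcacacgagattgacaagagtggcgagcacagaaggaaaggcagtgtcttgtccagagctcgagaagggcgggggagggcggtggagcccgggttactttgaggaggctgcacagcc
Cxcl10: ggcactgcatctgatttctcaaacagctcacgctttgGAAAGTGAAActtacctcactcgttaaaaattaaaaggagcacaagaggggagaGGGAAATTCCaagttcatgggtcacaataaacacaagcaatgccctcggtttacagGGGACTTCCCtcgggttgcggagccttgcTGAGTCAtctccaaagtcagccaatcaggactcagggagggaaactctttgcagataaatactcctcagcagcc
Csf1 had 1 kappaB match, first base at -154 from the start. Cxcl10 had an ISRE match at -213, kappaB matches at -159 and -103 and an AP-1 match at -74. No window was found for Ccl4, Ccl2, Cd83, Egr1, Lpl and Slc15a3. A match is a run of letters and is not shown to be bound in these cells.

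Of the inflammatory cytokines, Il1b and Csf1 were called higher in members of both libraries. Il1b, which encodes interleukin-1 beta, was 143 against 2.74 CPM in WT (log2 ratio 5.70, 4.54 to 6.85) and 322 against 16.8 CPM in the other library (4.26, 3.63 to 4.85). It was sparse, with 29 unthinned UMIs in 6 WT members and 69 in 13 IRF8KO members. A WT member with 172 Ccl3 plus Ccl4 UMIs held 17 of the 29, and without it the WT ratio was 3.93 (1.88 to 5.58), at 41.7 CPM. Tnf, the tumour necrosis factor gene, was 189 against 11.7 CPM in the library labelled IRF8KO (log2 ratio 4.01, 3.17 to 4.76). In WT it was 71.4 against 2.74 CPM, under the minimum, with 25 unthinned UMIs spread over 20 of 50 members and no more than 2 in a cell.

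Csf1 encodes the growth factor on which microglia depend. It was 255 against 10.8 CPM in WT (log2 ratio 4.56, 3.83 to 5.26) and 144 against 36.9 CPM in the other (1.97, 1.04 to 2.76). Without the WT cell with most of it, the WT ratio was 3.65 (2.66 to 4.53). Without the top IRF8KO cell, the other was 1.62 (0.55 to 2.52), no longer wholly past 2-fold. Tgfb1, the gene of an anti-inflammatory cytokine that maintains microglia, was 510 against 426 CPM in WT and 322 against 332 CPM in the other library, with intervals across 0 in both. Of 14 cytokines listed, 4 were counted in each library, and WT had 2 called higher and the library labelled IRF8KO had 3. Il10 and Il12b had 0 UMIs in members of both.

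Among 24 NF-kappaB targets and feedback genes, Cd83, a maturation marker of antigen-presenting cells, was highest in UMIs of those called. It was 337 against 46.4 CPM in WT (log2 ratio 2.86, 2.29 to 3.39) and 511 against 51.5 CPM in the other library (3.31, 2.84 to 3.75), and 39 of 50 and 24 of 46 members had at least 1 unthinned UMI. Plaur, the urokinase receptor, was called in WT at 122 against 6.58 CPM (log2 ratio 4.22, 3.14 to 5.19). Icam1, an adhesion molecule, was called in the library labelled IRF8KO at 278 against 66.8 CPM (2.06, 1.41 to 2.63) and not in WT, at 91.8 against 119 CPM (-0.38, -1.51 to 0.56). Without the IRF8KO member with most of it, the ratio was 1.53 (0.74 to 2.22) and the call was lost. Tnfaip2 was 111 against 13.2 CPM there (3.07, 1.97 to 4.01), with 7 of its 10 thinned UMIs in 1 member. Nfkbia, the inhibitor that NF-kappaB induces against itself, was 1.06 (0.32 to 1.72) and 0.91 (0.38 to 1.40) on the log2 scale. Calls numbered 2 of 8 counted genes in WT and 3 of 9 in the other, with medians of 0.93 and 1.41.

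Immediate early genes were led by Egr1, a zinc finger factor induced within minutes of a stimulus. It was 316 against 4.75 CPM in WT (log2 ratio 6.06, 5.26 to 6.87) and 167 against 5.31 CPM in the library labelled IRF8KO (4.97, 4.02 to 5.85). Egr3 had 11 thinned UMIs in WT members and 0 in comparison cells, a log2 ratio of at least 7.68, with 30 unthinned UMIs in 7 members. Id2, an inhibitor of basic helix-loop-helix factors, was 398 against 27.4 CPM in WT (3.86, 3.31 to 4.38) and 222 against 70.4 CPM in the other (1.66, 0.94 to 2.30). Junb, an AP-1 subunit, was called in the library labelled IRF8KO at 567 against 192 CPM (1.56, 1.13 to 1.96) and stood at 0.98 (0.52 to 1.41) in WT. Its call was lost without the IRF8KO member with most of it (1.44, 0.986 to 1.86).

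Several classic early genes were scarce. Fos had 4 and 3 unthinned UMIs in the members of the 2 libraries, Fosb 0 in both, and Dusp1 10 and 2. Jun was 459 against 295 CPM in WT (log2 ratio 0.64, 0.18 to 1.07) and 478 against 299 CPM in the other (0.68, 0.21 to 1.11). Rhob was not higher in members, at 582 against 616 CPM in WT and 233 against 422 CPM in the other library. Of 35 genes listed, 17 were counted and 3 called higher in WT, and 19 were counted and 4 called higher in the other. The medians were 0.76 and 0.99.

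The label of these cells came with Gadd45b, Atf3, Lgals3 and Spp1 as markers, and of these Gadd45b and Atf3 were higher in members of both libraries. Atf3, a stress-induced transcription factor, was 500 against 15.4 CPM in WT (log2 ratio 5.03, 4.49 to 5.55) and 222 against 11.9 CPM in the other (4.23, 3.45 to 4.93). Unthinned Atf3 UMIs were in 35 of 50 and 15 of 46 members, against 6.31% and 3.53% of comparison cells. After thinning they were in 13 of 49 and 13 of 45 members, against 2.89% and 2.15%. Gadd45b, a growth arrest gene, was 102 CPM against 1 UMI in the WT comparison cells (9.12, 6.31 to 14.56) and 100 against 1.11 CPM in the other (6.49, 4.98 to 7.999). Only 10 and 6 members had a Gadd45b UMI. The size of its WT ratio rests on the 1 comparison UMI. The unthinned WT comparison cells held 11 Gadd45b UMIs in 9 cells. Its unthinned WT ratio was 4.61 (3.496 to 5.81), below the thinned interval but wholly past 2-fold. Mean CPM was 51.1 and 50.6, just above the minimum of 50, on 10 and 9 thinned UMIs in members. With 1 member of the highest thinned count left out, members had 83.3 and 68.2 CPM, and both means fell under that minimum.

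Spp1 and Lgals3 marked few members. Spp1, which encodes osteopontin, was called higher in WT at 122 against 2.38 CPM (log2 ratio 5.69, 4.43 to 6.94), from 43 unthinned UMIs in 14 of 50 members. It had 0 UMIs in the 46 members of the library labelled IRF8KO, where 0 thinned UMIs allow up to 33.3 CPM. Lgals3, the galectin-3 gene, had 26 unthinned UMIs in 7 WT members and 3 in 2 members of the other library. All 7 of its thinned WT UMIs came from 1 member. The members are therefore called here by Ccl3 and Ccl4, not by those genes.

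Other stress genes had smaller ratios. Hmox1, the haem oxygenase 1 gene, was called higher in WT at 153 against 29.3 CPM (log2 ratio 2.39, 1.52 to 3.15) and was 111 against 27.2 CPM in the other library (2.03, 0.95 to 2.94). The remaining genes of this list, Atf4, Ddit3, Sqstm1 and Nfe2l2 among them, were not called in either library. Of the 20 genes, 7 were counted in WT and 5 in the other, with 1 and 0 calls. Heat shock genes lay above 0 in all 7 counted in WT and all 6 in the other library, with medians of 0.58 and 0.58, and 0 were called. Hsp90ab1, a constitutive chaperone, was 1827 against 1054 CPM in WT (0.79, 0.57 to 1.01) and 1300 against 866 CPM in the other (0.59, 0.31 to 0.85).

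Interferon response genes were counted for 18 of 27 genes in the library labelled IRF8KO and for 4 in WT. In the former, 5 were called higher and the median log2 ratio was 1.18. Rsad2, an antiviral enzyme, was 256 against 18.9 CPM (3.76, 3.06 to 4.40), Ifit1 344 against 61.1 CPM (2.49, 1.92 to 3.02) and Irf7 144 against 32.9 CPM (2.14, 1.21 to 2.94). Their UMIs were uneven, since 35 of 86 Rsad2 UMIs and 26 of 77 Ifit1 UMIs lay in the member that also held the most Cxcl10. Without it, Ifit1 was 2.10 (1.42 to 2.70), and Irf7 1.64 (0.49 to 2.58), which is no longer wholly past 2-fold. Gbp2, a guanylate-binding protein, was 3.78 (3.06 to 4.43) with that member and 2.35 (1.11 to 3.37) without it. In WT the median was -0.74 over the 4 genes, with 0 called. Ifit and Gbp genes have close copies, so their UMIs may be split between copies.

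The member with 120 Ccl3 plus Ccl4 UMIs and 11353 UMIs in all stood apart in the library labelled IRF8KO. It held all 102 Cxcl9 UMIs and all 75 UMIs of the MHC class II gene H2-Aa, 100 of 107 Cd74 UMIs, 177 of 305 Cxcl10 UMIs and 23 of 33 Gadd45b UMIs. H2-Aa and Cxcl9 were called higher with it, and without it both had 0 thinned UMIs in members. It was chosen for description after its values were seen.

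Of the disease-associated microglia genes, which mark microglia around plaques and lesions, Lpl was called in both libraries. Lpl, the lipoprotein lipase gene, was 102 against 16.3 CPM in WT (log2 ratio 2.65, 1.54 to 3.59) and 233 against 17.2 CPM in the other (3.76, 3.03 to 4.43). Without the WT member with most of it, the WT ratio was 1.68 (0.02 to 2.95). Cd9 and Cd63, membrane tetraspanins, were 1673 against 880 CPM and 786 against 316 CPM in WT (0.93, 0.69 to 1.15, and 1.32, 0.97 to 1.65). In the library labelled IRF8KO, Cd9 was 0.74 (0.51 to 0.96) and Cd63 0.36 (0.10 to 0.62). Apoe was 684 against 427 CPM in WT (0.68, 0.31 to 1.03). It did not rise with the chemokines among WT members. Apoe was 1150 CPM in those with 5 to 9 Ccl3 plus Ccl4 UMIs and 500 CPM with 10 to 19. With 20 or more it was 300 CPM (155 to 524). In the other library it was 73956 against 87963 CPM, a ratio of -0.25 (-0.29 to -0.22). Trem2 was 0.11 and -0.06. Calls were 1 of 17 and 1 of 20 counted genes, with medians of 0.34 and 0.35.

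Homeostatic microglia genes lay slightly below the comparison cells. In WT 8 of 30 were above 0, the median log2 ratio was -0.12, and 0 were called. In the library labelled IRF8KO 3 of 26 counted genes were above 0, with a median of -0.26, and 1 was called, Crybb1, at 11.1 against 199 CPM (-4.17, -9.47 to -1.69). That ratio rests on 1 thinned UMI in members. Without thinning, 6 members held 15 Crybb1 UMIs, at 60.5 against 191 CPM. The unthinned ratio was -1.66 (-2.50 to -0.94), not wholly past 2-fold. P2ry12, the purine receptor that guides microglial processes, was 2918 against 3724 CPM in WT (-0.35, -0.53 to -0.18) and 356 against 654 CPM in the other (-0.88, -1.43 to -0.38). Maf, a transcription factor of mature macrophages, was -0.25 in WT and -0.93 (-1.35 to -0.53) in the library labelled IRF8KO.

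Slc15a3, a lysosomal transporter of histidine and bacterial peptides, was the remaining gene called in both libraries, at 378 against 96.0 CPM in WT (log2 ratio 1.98, 1.45 to 2.46) and 378 against 84.5 CPM in the other (2.16, 1.62 to 2.66). It was also the most widespread of those genes, with unthinned UMIs in 43 of 50 and 31 of 46 members. Of the comparison cells, 31.2% and 23.4% had an unthinned UMI. After thinning, Slc15a3 was in 21 of 49 and 21 of 45 members, against 16.9% and 14.9% of comparison cells. Genes with high ratios in WT by the naming rule, and not called in the other library, included Nab2, a repressor that Egr factors induce (3.22, 2.43 to 3.93), Pdgfa, a growth factor gene (2.38, 1.71 to 2.99), Impact (2.56, 1.88 to 3.19) and the protease inhibitor gene Cstb (2.09, 1.53 to 2.60). In the library labelled IRF8KO, Fam20c, a secretory pathway kinase, was higher at 233 against 17.9 CPM (3.70, 2.97 to 4.37), with unthinned UMIs in 16 of 46 members.

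Markers of other cell types ranged from 0 to 389 CPM in members, summed by list. All 12 T and natural killer cell markers had 0 UMIs in the thinned members of both libraries, and neuron markers were 0 in both. The summed level of 8 neutrophil markers was 0 CPM in WT members and 44.4 CPM in IRF8KO members, against 2.56 and 60.2 CPM in comparison cells. Of these 8, 6 are the genes by which the rule removed cells, so this sum was kept low by the filter. Of 8 monocyte markers the sum was 10.2 against 7.31 CPM in WT and 122 against 48.0 CPM in the other, which is 1 and 11 thinned UMIs, and 6 of 8 had 0 unthinned UMIs in each group of members. Border macrophage markers, 8 genes of macrophages at the vessels and meninges, summed to 245 against 231 CPM in WT and 389 against 540 CPM in the other library, and Stab1 gave all of the members' UMIs. B cell, endothelial, astrocyte and oligodendrocyte markers summed to 33.3 to 235 CPM in members and 25.4 to 305 CPM in comparison cells. Cell cycle genes were 306 against 352 CPM and 333 against 343 CPM. The median mitochondrial share was 1.96% in WT members against 2.09%, and 4.03% in IRF8KO members against 3.67%.

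**Figure D3:**
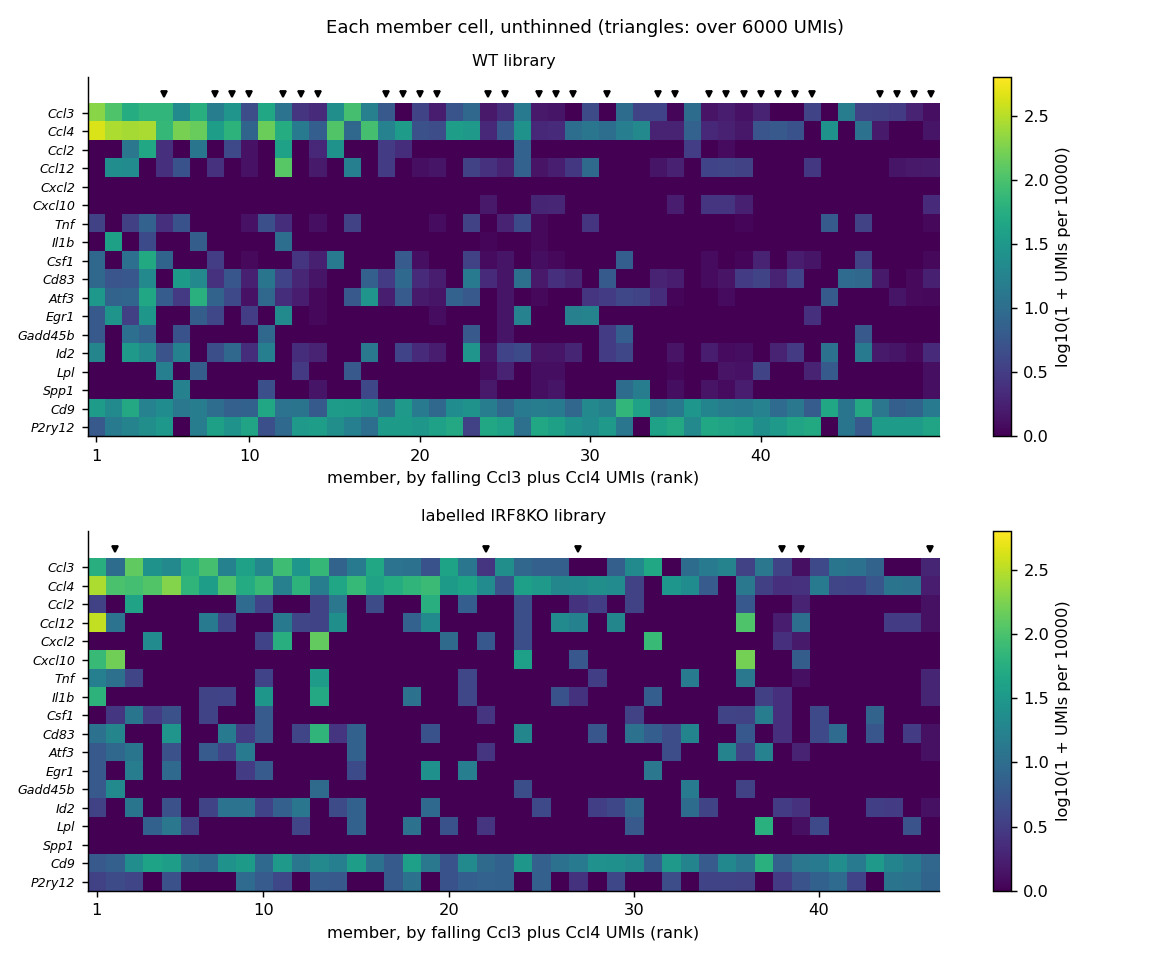
Each column is a member, ordered by falling Ccl3 plus Ccl4 UMIs, and each row a gene; colour gives log10 of 1 plus the unthinned UMIs per 10000, for WT above and the library labelled IRF8KO below, and triangles mark members with over 6000 UMIs. Cxcl10 and Ccl12 are concentrated in few IRF8KO columns, and in WT the columns at left have low P2ry12.

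The members varied among themselves. At 2000 UMIs per cell, a median of 2 of the 10 genes called in both libraries was detected per member in each library. At least 3 were detected in 17 of 49 WT members (34.7%, exact interval 21.7 to 49.6) and in 20 of 45 IRF8KO members (44.4%, 29.6 to 60.0). Among cells with 0 Ccl3 and Ccl4 UMIs the shares were 15 of 2735 (0.548%, 0.307 to 0.903) and 50 of 4048 (1.24%, 0.918 to 1.62). The 10 genes were chosen on these same cells, so the gap between the groups is not independent of their choice. What the choice does not fix is the spread: 11 WT members and 4 IRF8KO members had 0 of the 10, while others had up to 8 and 6. Of those 11 WT members, 10 had over 6000 UMIs before thinning, and of the 4 IRF8KO members, 0 did. At 2000 UMIs per cell a gene can be missed, so 0 detected genes does not show that they were absent.

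Pairs of genes overlapped only in part. By unthinned counts, Tnf was detected in 20 WT members and Il1b in 6, and 3 members had both. In the library labelled IRF8KO, 11 had Tnf, 13 had Il1b and 5 had both, and of 6 members with Cxcl10, 4 had Tnf and 2 had Il1b. Ccl2 was in 14 WT members, 8 of which had Ccl12, and in 16 IRF8KO members, 9 of which had it. Atf3 and Cd83 were together in 27 WT members and in 9 of the other library. Depth sets such overlaps in part, since a deeper cell shows more genes.

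Levels of most of the shared genes were highest in the members with most Ccl3 and Ccl4. In the 20 WT members with 20 or more UMIs, Ccl2 was 850 CPM (Poisson interval 589 to 1188), against 25 CPM (0.633 to 139) in the 20 with 5 to 9 and 0.183 CPM in cells with 0. Atf3 was 1075 CPM (778 to 1448) in the first group and 25 CPM (0.633 to 139) in the second, below the 80.6 CPM (26.2 to 188) of the 31 cells with 3 or 4 UMIs. In the library labelled IRF8KO, Atf3 was 263 CPM (126 to 484) in 19 members with 20 or more and 294 CPM (141 to 541) in 17 members with 5 to 9. Ccl12 there was 2421 CPM (1952 to 2969), against 529 CPM (314 to 837) at 5 to 9 and 742 CPM (543 to 990) at 3 or 4. P2ry12 in WT was 2575 CPM (2102 to 3123) at 20 or more, 3150 CPM (2624 to 3750) at 5 to 9 and 3724 CPM at 0. In WT, the intervals of Atf3 overlapped between members with 5 to 9 UMIs and cells with 3 or 4.

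**Figure D4:**
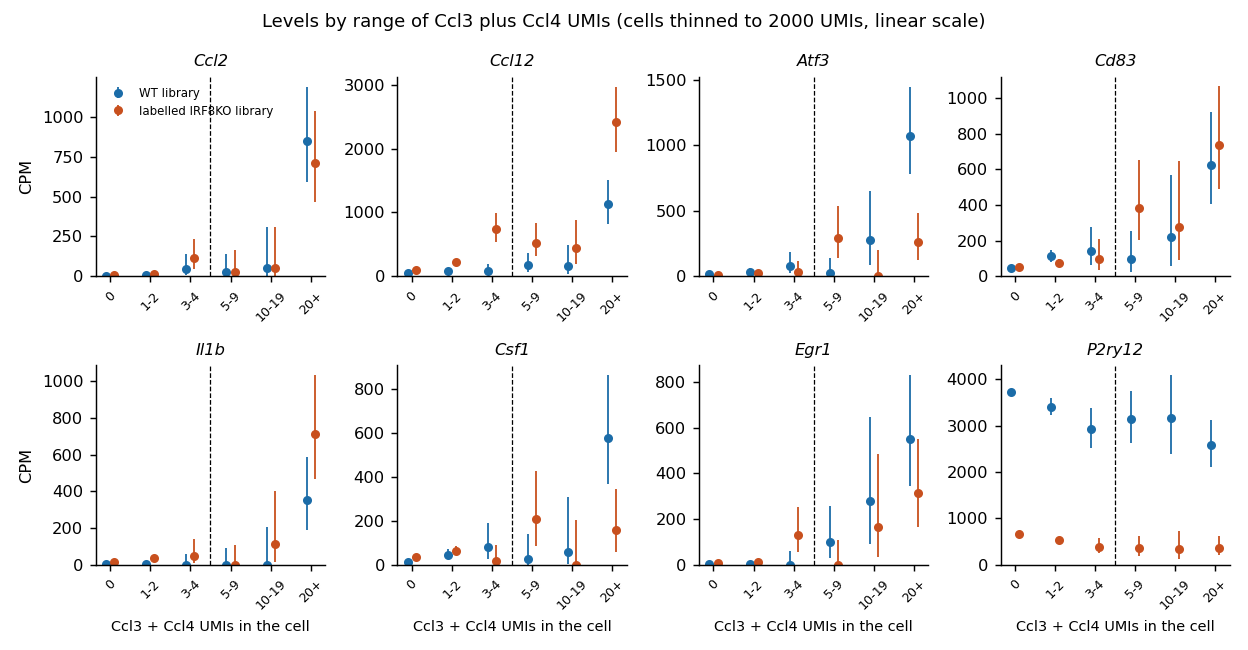
For 8 genes, the y axes give CPM on a linear scale in cells thinned to 2000 UMIs, grouped on the x axis by their unthinned Ccl3 plus Ccl4 UMIs; points are levels, bars exact 95% Poisson intervals and the dashed line the threshold. Ccl2, Ccl12, Atf3, Cd83, Il1b, Csf1 and Egr1 reach their highest WT level in cells with 20 or more, and P2ry12 its lowest.

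The WT calls differed with the depth range of the cells. Among WT cells with 2000 to 6000 UMIs, 19 members were compared with 2213 cells, and 88 of 3655 genes were called higher (2.41%) and 9 lower (0.246%). Among WT cells with over 6000 UMIs, 30 members were compared with 522 cells, and 8 of 3820 genes were called higher (0.209%) and 2 lower (0.0524%). The 8 were Ccl2, Egr1, Csf1, Ccl12, Lpl, Id2, Cd74 and Ftsj3. Both groups were thinned to the same 2000 UMIs per cell. The ranges of depth were set after the data were seen in the case of the deeper cells, and the difference between them was not tested.

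In the shallower WT members the differences were larger and more numerous. Atf3 reached 1237 against 14.5 CPM (log2 ratio 6.42, 5.84 to 6.98), Csf1 500 against 11.7 CPM (5.41, 4.57 to 6.19) and Id2 737 against 28.2 CPM (4.71, 4.06 to 5.31). In the deeper members Atf3 was 33.3 against 19.2 CPM (0.80, -2.34 to 2.84). Genes called higher at 2000 to 6000 UMIs and not in the whole WT comparison included Cd9 at 2789 against 899 CPM (1.63, 1.34 to 1.91), Cd63 at 1289 against 313 CPM (2.04, 1.60 to 2.45) and the cathepsin gene Ctsb at 3921 against 1494 CPM (1.39, 1.15 to 1.63). Nfkbia (2.11, 1.26 to 2.85), Tnf (5.64, 3.97 to 7.11, under the minimum in the whole comparison) and the complement receptor gene C3ar1 (1.99, 1.43 to 2.49) were also called, as was C5ar1 (2.65, 2.10 to 3.16), which the whole comparison called too. Hbegf, a growth factor gene, was 5.08 (3.82 to 6.19).

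Of 30 homeostatic genes, 1 was called lower in the shallower WT members. This was P2ry12, at 1289 against 3726 CPM (log2 ratio -1.53, -1.97 to -1.13), whereas the deeper members had 3950 against 3715 CPM (0.09, -0.11 to 0.28). Other list members, chosen after their values were seen, had ratios below 0. Tmem119, a microglial membrane protein, was 763 against 1417 CPM (-0.89, -1.47 to -0.37) and Cx3cr1, the fractalkine receptor, 2895 against 4551 CPM (-0.65, -0.94 to -0.38). In the deeper members these were -0.14 and -0.07. The list's median was -0.27 and -0.05, with 23 of 30 and 17 of 29 counted genes below 0. The summed share of the list differed little, at a median of 9.85% of a shallower member's thinned UMIs against 10.2%, and 1 of 19 members lay below the 5th percentile of the comparison cells and 1 above the 95th. Other genes called lower in the shallower members included Srgap2 (-2.36, -3.81 to -1.24), Arhgap5 (-2.27, -3.33 to -1.39) and Tcf4 (-3.97, -9.27 to -1.49).

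The 6 WT members with the most Ccl3 and Ccl4 held 2, 6, 7, 7, 22 and 0 P2ry12 UMIs at depths of 3935, 4415, 4178, 3055, 7243 and 4972 UMIs. A member with 53234 UMIs, by contrast, held 225 of them beside 56 Ccl3 plus Ccl4 UMIs. At least 3 of the 10 shared genes were detected in 13 of 19 shallower WT members (68.4%, 43.4 to 87.4) and in 4 of 30 deeper ones (13.3%, 3.75 to 30.7), at the same thinned depth. These groups also differed in the chemokines that chose them. After thinning, 14 of the 19 and 6 of the 30 held 3 or more Ccl3 plus Ccl4 UMIs. The 10 genes were called on these same members, so the gap is not independent of the choice.

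The library labelled IRF8KO had few deep members. Its 39 members with 2000 to 6000 UMIs were compared with 3661 cells, and 58 of 3192 genes were called higher (1.82%) and 3 lower (0.094%), with 48 of the 58 also called in its whole comparison. Atf3 was 4.25 (3.43 to 4.99), Cd83 3.39 (2.90 to 3.85), P2ry12 -0.83 (-1.41 to -0.31) and Cd9 0.79 (0.55 to 1.02). Csf1 was 1.95 (0.93 to 2.81) and Id2 1.87 (1.15 to 2.51). At matched depth the WT ratios of Atf3, Csf1, Id2 and Cd9 lay above these, with intervals that did not overlap, and those of Cd83 and P2ry12 overlapped. In the 19 WT members of that range, 1 cell held 12 of 19 thinned Csf1 UMIs, and 1 cell held 15 of 47 Atf3 UMIs. The intervals do not take such uneven cells into account. The 19 WT and 39 IRF8KO members also differed in Ccl3 plus Ccl4, with medians of 100.2 and 50.4 UMIs per 10000. The comparison cells differed too. Over all depths, WT and IRF8KO cells with 0 held 10.8 and 36.9 CPM of Csf1 and 27.4 and 70.4 CPM of Id2. For Cd9 these were 880 and 1134 CPM, and for Atf3 15.4 and 11.9 CPM. A difference between genotypes cannot be told apart from a difference between 2 pools, sorts and libraries.

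**Figure D5:**
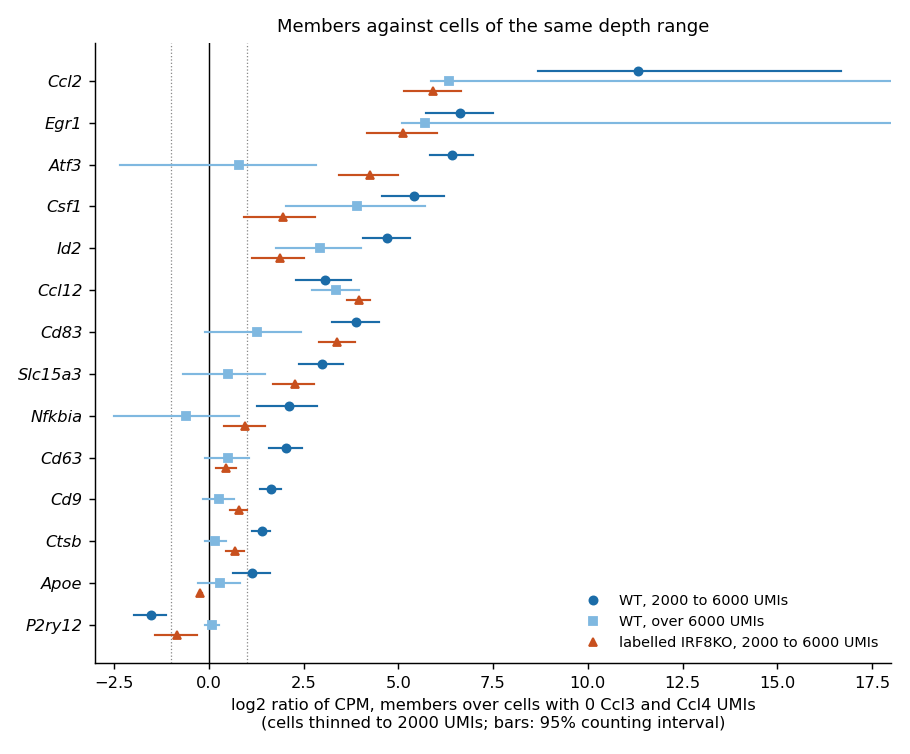
The x axis gives the log2 ratio of members over cells with 0 Ccl3 and Ccl4 UMIs within a depth range, for 14 genes, with 95% counting intervals; circles are WT cells with 2000 to 6000 UMIs, squares WT cells with over 6000, and triangles cells of the library labelled IRF8KO with 2000 to 6000. Atf3, Cd83, Slc15a3, Nfkbia, Cd63, Cd9, Ctsb and P2ry12 lie wholly past 2-fold in the circles and not wholly past it in the squares. The square of Atf3 has a wide interval across 0. Ccl2 and Egr1 had 0 UMIs in the comparison cells of the squares, so those points are lower bounds with no upper limit.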

How the data were processed

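Single-cell RNA was measured in 1 WT and 1 IRF8KO-labelled library. The values the authors deposited are raw UMI counts, whole numbers by gene and cell barcode. Per the file headers they were written by software version 3.1.0. Per the submitters' processing notes, bcl2fastq, Cell Ranger 3.1, Scanpy and mm10 were used. The labels' protocols also name a full-length low-input kit, but the values are droplet counts and were treated so.

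Cells were filtered by the rule given above and thinned to 2000 UMIs without replacement. Kept cells held 18543061 and 18980263 UMIs. UMIs were summed over members and over cells with 0 Ccl3 and Ccl4, and scaled to CPM. A sum of 0 was replaced by 3 counts, and no ratio was given where both sums were at or below 3. Intervals (95%) were exact Poisson, conditional binomial and Clopper-Pearson. No test across cells was run. Alternatives changed depth, scaling, thresholds, comparison cells and doublet, mitochondrial and neutrophil filters. Doublet scores came from scanpy 1.11.5, TMM from edgeR 4.0.16 (R 4.3.3), the rest from Python 3.11.15, numpy 2.4.6, scipy 1.17.1 and pandas 2.3.3. The comparison was tested on simulated data.

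Named genes were the label's markers, the 12 highest and 8 lowest ratios per library at a mean CPM of at least 100, the 4 largest per gene list, and Irf8. Mitochondrial, ribosomal, haemoglobin and unnamed genes were left out. Others, chosen after their values were seen, are list members or genes called in a comparison. The members and lists were chosen with earlier results of these data known.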

Additional observations from a re-analysis of the deposited data

How the results depend on the processing

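Of the log2 ratios of named genes recomputed under other settings, 1438 stayed within the interval first given, 198 moved outside it and 7 changed sign. The WT share of members was 0.795% after thinning with 3 or more UMIs required. Genes 2-fold or more higher and lower in WT members numbered 25 and 5 at a mean of at least 200 CPM, 1158 and 900 with no minimum, 385 and 281 after thinning to 1000 UMIs and 6 and 4 without thinning. They numbered 351 and 283 for members with 10 or more UMIs, 611 and 464 in cells of 2000 to 6000 UMIs and 426 and 372 for members chosen after thinning. In the library labelled IRF8KO they numbered 37 and 5, 1278 and 822, and 119 and 27 at 200 CPM, with no minimum and without thinning. There, 399 were higher after thinning to 1000 UMIs, and 1457 higher and 105 lower in cells of over 6000 UMIs, where only 6 members remained.

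By the whole interval, WT genes called higher ranged from 5 without thinning, 4 of them among the 33, to 88 in cells of 2000 to 6000 UMIs, 31 of them among the 33. With another random draw of the thinning, 39 were called in WT, 29 of them among the 33, and 61 in the other library, 43 of them among the 58.

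Log2 ratios that changed sign were Atraid in WT without thinning (0.089), Nfkbia in WT cells of over 6000 UMIs (-0.59) and Hspa5 in IRF8KO cells of over 6000 UMIs (-1.54). With another draw, Fgfr1op2 (0.14), Cggbp1 (0.21) and Parp14 (0.0687) did so in WT and Nab2 (-0.64) in the other library. The cause was not tested. Cells of over 6000 UMIs, the richest members left out, the second draw, the whole-interval criterion and members chosen after thinning were added after seeing the data. No paired analysis was possible because each group is 1 library and no test was run. A gene with 0 thinned UMIs may stand at up to 30.6 CPM in WT members and 33.3 CPM in IRF8KO members, which limits what could be detected.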
